A study of Mus musculus with 2 samples.

Results

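The 10 genes described here encode metalloproteinases of the extracellular matrix and the tissue inhibitors that block them. They are Mmp2, Mmp3, Mmp14, Mmp23, Adamts1, Adamts2 and Adamts5 on the proteinase side and Timp1, Timp2 and Timp3 on the inhibitor side, taken by symbol from the 27998 genes of the count tables, in which each symbol was found in both libraries. Tendon cells of mice at postnatal day 7 (P7) were profiled by 10x Genomics 3′ single-cell RNA sequencing, in which each captured mRNA carries a unique molecular identifier (UMI) so that PCR copies are counted once. The mutant library came from Tgfbr2 f/-;ScxCre pups, which lack the type II receptor for TGFβ in the lineage that expresses Scleraxis (Scx), and the control library came from pups that one label calls wild type and another Het. All pups carried the ScxGFP and RosaT reporters, cells were released by enzymes from fore- and hindlimb tendons, and each library pooled 2 pups. ScxCre reaches only some tenocytes in the embryo and targets the whole lineage after birth, and the Scx counts can include reads from the ScxGFP transgene. Each genotype has a single library, which leaves the variation between animals unmeasured, and no difference was tested. Ratios have exact 95% intervals that cover counting error only, and genotype, litter and library preparation cannot be told apart.

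The wild-type library held 2364 cells with a median of 3866.5 UMIs, and the mutant library held 2592 cells with a median of 2828 UMIs. Cells were sorted into classes by marker counts. Scx-high cells had at least 30 Scx UMIs per 10000 and numbered 1153 in the wild-type library and 218 in the mutant library. Scx-low fibroblasts fell under that threshold and had at least 5 UMIs over Ly6a, Cd34, Dpt, Lum and Col3a1, and they numbered 711 and 1815. The other classes used below were mural cells (158 and 95), endothelial cells (22 and 29), immune cells (193 and 193) and haemoglobin-rich cells (88 and 79). Between 25 and 35 Scx UMIs per 10000 lay 12 cells below and 11 above the threshold in the wild-type library, and 9 and 11 in the mutant library. Levels are given as UMIs per 1000000 UMIs of a class (CPM). Scx-high cells carried the tendon markers Tnmd, Fmod, Mkx, Thbs4, Col11a1 and Kera at a summed 16488 CPM in the wild-type library and 11439 CPM in the mutant library. The mutant Scx-high class was more mixed than its wild-type counterpart: 80.7% of its cells also reached the fibroblast threshold, against 15.7%. Tgfbr2 was at 30.5 CPM in wild-type and 46.7 CPM in mutant Scx-high cells, but 3′ counts outside the deleted part do not check the deletion.

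Metalloproteinases are made as inactive precursors and cut the proteins of the matrix once their propeptide is removed. MMP14 is anchored in the cell membrane, where it cleaves fibrillar collagen and, with TIMP2 as an adaptor, activates the MMP2 precursor. MMP3 cuts proteoglycans and glycoproteins and can activate other MMP precursors, and MMP23 is a small membrane-bound member with an unusual domain make-up. ADAMTS1 and ADAMTS5 cleave aggrecan and versican, whereas ADAMTS2 trims the amino-terminal propeptide from fibrillar procollagens and is needed for normal collagen fibrils. TIMPs bind the active site of these enzymes. TIMP1 and TIMP2 are soluble, and TIMP3 stays bound to the matrix and is the member known for blocking ADAMTS enzymes.

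The genes lie on 8 chromosomes of GRCm38, with coordinates from GENCODE M21. Adamts1 (chr16:85793827-85803113) and Adamts5 (chr16:85856173-85901828) are neighbours on the minus strand, and Timp2 (chr11:118301069-118355740, minus strand) and Adamts2 (chr11:50602084-50807573, plus strand) share a chromosome. Timp1 (chrX:20870166-20874735) lies inside the gene Syn1 on the opposite strand and Timp3 (chr10:86300372-86349506) inside Syn3. Syn1 had 7 UMIs and Syn3 had 4 UMIs over both libraries. The remaining genes are Mmp2 (chr8:92827291-92853420, plus strand), Mmp3 (chr9:7445822-7455975, plus strand), Mmp14 (chr14:54431612-54445364, plus strand) and Mmp23 (chr4:155650655-155653384, minus strand).

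Promoters were available for 8 of the 10 genes from RefSeq on GRCm38.p6, the exceptions being Mmp2 and Adamts5. The 250 bases before the RefSeq start are shown for the 5 genes that the comparisons below turn on. These genes were higher in the mutant library in different classes, Mmp3 and Adamts1 in Scx-low fibroblasts, Timp1 and Timp2 in Scx-high cells, and Mmp14 in both. RefSeq starts can differ from the GENCODE coordinates above, and the Timp2 window lies inside the gene as GENCODE places it. Capitals mark AP-1 letters (TGANTCA), GC boxes (GGGCGG) and TATA letters (TATAAA), searched on both strands.
Mmp3, chr9:7445572-7445821, plus strand: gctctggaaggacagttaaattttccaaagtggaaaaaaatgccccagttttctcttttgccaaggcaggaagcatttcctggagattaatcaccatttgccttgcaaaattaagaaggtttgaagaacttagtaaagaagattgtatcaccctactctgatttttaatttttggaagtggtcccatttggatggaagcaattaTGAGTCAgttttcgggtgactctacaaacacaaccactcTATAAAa
Mmp14, chr14:54431348-54431597, plus strand: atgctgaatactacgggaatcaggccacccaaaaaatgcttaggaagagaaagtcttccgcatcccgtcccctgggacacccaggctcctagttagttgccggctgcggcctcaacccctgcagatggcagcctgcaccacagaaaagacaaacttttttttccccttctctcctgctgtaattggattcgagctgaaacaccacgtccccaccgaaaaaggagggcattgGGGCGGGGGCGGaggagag
Adamts1, chr16:85803114-85803363, minus strand: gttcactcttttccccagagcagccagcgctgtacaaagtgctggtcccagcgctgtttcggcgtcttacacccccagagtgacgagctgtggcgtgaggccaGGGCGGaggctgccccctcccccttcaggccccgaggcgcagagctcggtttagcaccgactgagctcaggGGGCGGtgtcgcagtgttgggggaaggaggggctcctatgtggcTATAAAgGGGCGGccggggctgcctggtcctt
Timp1, chrX:20869916-20870165, plus strand: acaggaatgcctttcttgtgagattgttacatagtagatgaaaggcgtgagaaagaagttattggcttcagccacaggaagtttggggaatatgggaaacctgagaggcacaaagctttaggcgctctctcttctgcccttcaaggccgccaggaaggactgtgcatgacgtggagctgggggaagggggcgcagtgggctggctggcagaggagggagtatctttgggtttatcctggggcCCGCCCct
Timp2, chr11:118355412-118355661, minus strand: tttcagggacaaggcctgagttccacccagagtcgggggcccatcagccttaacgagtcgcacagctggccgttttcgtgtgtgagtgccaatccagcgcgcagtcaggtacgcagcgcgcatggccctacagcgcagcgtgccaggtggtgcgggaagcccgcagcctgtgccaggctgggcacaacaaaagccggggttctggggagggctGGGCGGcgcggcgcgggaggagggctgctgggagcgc
The AP-1 letters stood in the Mmp3 promoter, 46 bases before the start, and in no other of the 8 promoters. They occur in 6.87% of 27025 mouse promoters of this length. TATA letters stood 7 bases before the start of Mmp3 and 32 bases before that of Adamts1, against 13.0% of all promoters. GC boxes were found in Mmp14, Adamts1, Adamts2, Timp1, Timp2 and Timp3, and in 32.9% of all promoters. Mmp3 and Mmp23 held none. The Mmp3 window was also the poorest in G and C, at 37.6% against 54.4% to 78.0% for the other 7. Other letters were also searched and are not marked. GTCTAGAC, a Smad element, was in none of the 8 promoters and in 0.174% of all promoters. CAGAC was in Mmp23 alone, against 42.1% of all promoters. CACCC was in Mmp3, Mmp14, Mmp23, Adamts1, Timp2 and Timp3, and in 51.3% of all promoters. These are matches of letters and do not show that a factor binds there.

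The first comparison asked which of these genes mark tenocytes and which mark the surrounding fibroblasts in wild-type tendon. The levels count transcripts at their 3′ ends and are not scaled by gene length. Timp2 was the most abundant of the 10 in both classes, at 1094 CPM (95% Poisson interval 1064 to 1124) in Scx-high cells and 801 CPM (767 to 835) in Scx-low fibroblasts. Timp1 came next in Scx-high cells, at 490 CPM against 341 CPM in fibroblasts. Among the proteinases, Mmp23 led in Scx-high cells with 341 CPM (325 to 358) against 161 CPM (147 to 177), whereas Mmp2 led in fibroblasts with 369 CPM (347 to 393) against 230 CPM (217 to 244).

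Of the 9 genes with at least 20 UMIs in these classes, Adamts5 and Timp3 had the largest ratios in favour of the fibroblasts. Adamts5 was at 105 CPM (93.0 to 118) in wild-type Scx-low fibroblasts and 20.03 CPM (16.2 to 24.5) in Scx-high cells, 5.23-fold higher (4.14 to 6.67). Timp3 was at 138 CPM (124 to 153) and 43.4 CPM (37.7 to 49.7), 3.18-fold higher (2.68 to 3.79). Mmp23 went the other way and was 2.12-fold higher in Scx-high cells (1.90 to 2.36). Mmp14 was near even, at 332 CPM in fibroblasts and 293 CPM in Scx-high cells, and its direction held in 9 of the 11 alternative settings that change it. Adamts1 was at 54.3 and 40.3 CPM and Adamts2 at 133 and 182 CPM. Mmp3 had 10 UMIs in the fibroblasts and 0 UMIs in the 1153 Scx-high cells, which allows up to 0.626 CPM, and it was too low to be counted.

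Of the 9 genes with at least 20 UMIs in this pair of classes, 2 were at least 2-fold higher in fibroblasts and 1 was at least 2-fold lower. Among all 10554 genes, 20.8% were at least 2-fold higher and 6.19% at least 2-fold lower, and the median log2 ratio was 0.45 against 0.18 for the members. Divided by that median, the members kept 2 and 1 while the shares of all genes became 11.2% and 11.4%.

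**Figure D1:**
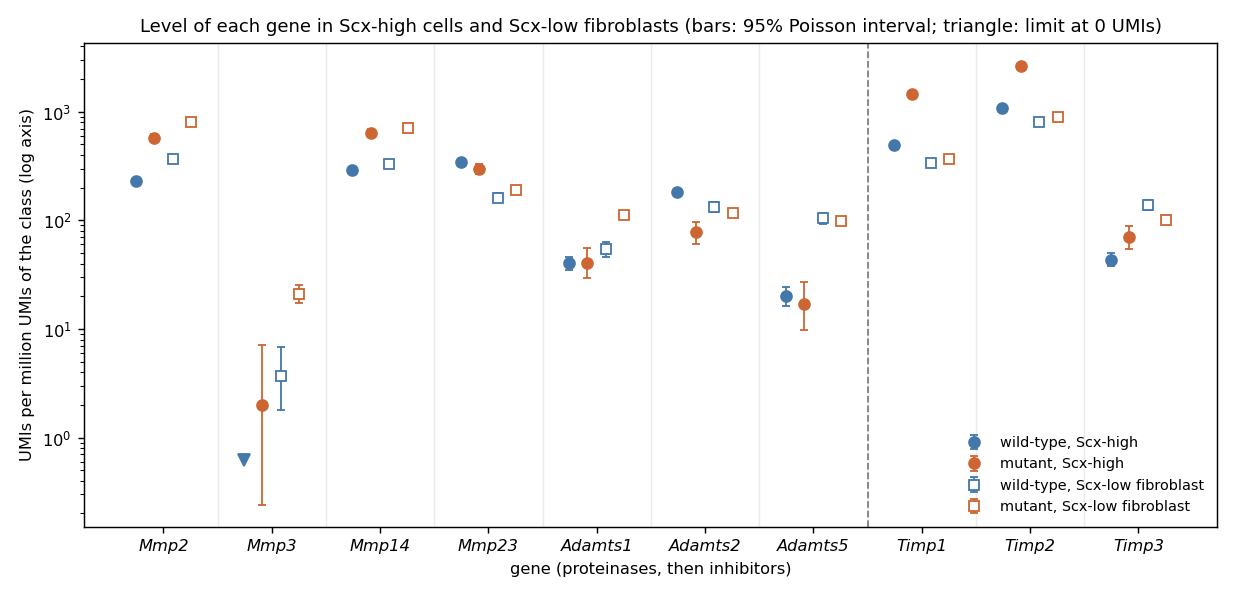
Level of the 10 genes in CPM (log axis) in Scx-high cells (filled circles) and Scx-low fibroblasts (open squares) of the wild-type (blue) and mutant (orange) libraries, with 95% Poisson intervals that cover counting error only and a triangle at the limit that 0 UMIs allow. Mmp2 and Mmp14 are higher in both mutant classes, Timp1 and Timp2 stand highest in mutant Scx-high cells at 1466 and 2614, and Mmp3 is at 21.0 in mutant Scx-low fibroblasts.

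The second comparison set the Scx-high cells of the mutant library against those of the wild-type library. The paper describes cells with ScxGFP in P7 mutant tendons as newly recruited, some of them with little or no RosaT signal. The mutant Scx-high class may hold such cells, which were not told apart here from tenocytes that lost Tgfbr2. Collagen-directed proteinases and soluble inhibitors were both higher in the mutant class, and the procollagen-trimming Adamts2 was lower. Mmp2 was at 574 CPM (528 to 623) against 230 CPM, a ratio of 2.49 (2.25 to 2.76). Mmp14 was at 636 CPM (588 to 688) against 293 CPM, a ratio of 2.17 (1.97 to 2.38). Adamts2 was at 77.4 CPM (61.2 to 96.7) against 182 CPM (170 to 194), 2.35-fold lower (1.86 to 3.001).

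On the inhibitor side, Timp1 reached 1466 CPM (1393 to 1543) against 490 CPM (470 to 510), a ratio of 2.99 (2.80 to 3.20). Timp2 reached 2614 CPM (2515 to 2716) against 1094 CPM, a ratio of 2.39 (2.28 to 2.51), and no other member reached this level in any class. Timp3 was at 70.5 CPM (55.1 to 88.9) against 43.4 CPM, a ratio of 1.62 (1.22 to 2.14) that did not reach 2-fold. Among Scx-high cells over the fibroblast threshold the Timp3 ratio was 1.099 (0.754 to 1.604). Under the threshold it was 1.84 (0.781 to 3.72), from 8 mutant UMIs. Both of these intervals include 1. The intervals of the inhibitor levels, which cover counting error only, did not overlap between the libraries for any of the 3. Over the alternative settings the ratio ranged from 1.53 to 3.35 for Timp1, 1.43 to 2.54 for Timp2 and 1.36 to 2.39 for Timp3.

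Over the whole class, Mmp23, Adamts1 and Adamts5 were within 1.5-fold. Mmp23 was at 298 CPM in mutant and 341 CPM in wild-type Scx-high cells, a ratio of 0.873 (0.769 to 0.987) that joins opposite values in cells with and without fibroblast markers, given below. Adamts5 was at 16.9 against 20.03 CPM and Adamts1 at 40.7 against 40.3 CPM, and the direction of Adamts1 held in only 4 of the 8 alternative settings that change it. Mmp3 had 2 UMIs in 1 mutant cell and 0 in the wild-type class.

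Of the 9 members counted here, 4 were at least 2-fold higher in the mutant class and 1 was at least 2-fold lower, against 12.2% and 7.76% of 9673 genes. All genes had a median log2 ratio of 0.25 and the members of 0.70. After division by the median gene, 3 members were higher and 1 lower while the shares of all genes became 7.94% and 11.4%. With the 20 most abundant genes left out of the totals, the counts were again 3 and 1, beside 8.34% and 10.5%.

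The make-up of the class moved with these values. The mural marker list was summed at 751 CPM in mutant and 280 CPM in wild-type Scx-high cells, with 9 of 10 markers detected in each and Higd1b at 0. Acta2, the smooth muscle actin that contractile fibroblasts also make, supplied 717 of the 756 UMIs in the mutant class and 1156 of 1344 in the wild-type class. The muscle list was at 76.5 against 2.92 CPM, with 5 and 3 of 6 markers detected. Leaving out cells with markers of a further class and the 5% of cells with most UMIs gave ratios of 2.58 for Mmp2, 2.40 for Mmp14, 2.00 for Timp1, 2.08 for Timp2 and 2.39 for Timp3, with Adamts2 1.99-fold lower. Among Scx-high cells under the fibroblast threshold, an alternative chosen after seeing the data, 42 mutant and 972 wild-type cells were left, with medians of 2629 and 4204.5 UMIs. Mmp14 was still 2.29-fold higher there (1.78 to 2.92), whereas Mmp2 was at 1.64 (1.16 to 2.25), Timp1 at 1.53 (1.201 to 1.92) and Timp2 at 1.43 (1.22 to 1.66). Mmp23 was 3.79-fold lower in these cells, at 98.2 CPM from 11 UMIs against 372 CPM. In Scx-high cells over the fibroblast threshold, 176 mutant and 181 wild-type, Mmp23 was higher in the mutant library, with a ratio of 1.59 (1.31 to 1.92). There the ratio was 1.72 (1.501 to 1.98) for Mmp14 and 2.11 (1.81 to 2.46) for Mmp2. It was 2.44 (2.21 to 2.69) for Timp1 and 2.69 (2.49 to 2.91) for Timp2. Mmp14 thus had its larger ratio under the threshold, and Mmp2, Timp1 and Timp2 had theirs over it. The part of the fibroblast-marker cells in the other ratios was not tested beyond these values.

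The third comparison set the Scx-low fibroblasts of the libraries against each other. The paper describes most cells in mutant tendons as tenocytes that lost ScxGFP and gained progenitor markers, the product of Cd34 among them. In wild-type tendon it found this protein only in the epitenon, which was not scraped off before sequencing. The class may therefore hold cells of different origin in each library, and its ratios need not be changes within a cell type. Origin was not tested. Here the proteinases Mmp2, Mmp3, Mmp14 and Adamts1 were higher in the mutant library while the inhibitors differed little over the whole class. Mmp2 was at 803 CPM (780 to 827) against 369 CPM, a ratio of 2.17 (2.03 to 2.33). Mmp14 was at 711 CPM (689 to 733) against 332 CPM (311 to 355), a ratio of 2.14 (1.99 to 2.30). Adamts1 was at 111 CPM (103 to 120) against 54.3 CPM (45.8 to 63.8), a ratio of 2.05 (1.71 to 2.47) that ranged from 1.89 to 2.15 over the alternative settings. The intervals of these 3 genes did not overlap between the libraries.

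Mmp3 had the largest ratio of the 10 and the smallest counts. It had 119 UMIs in mutant fibroblasts, or 21.0 CPM (17.4 to 25.2), and 10 UMIs in wild-type fibroblasts, or 3.72 CPM (1.78 to 6.84), a ratio of 5.66 (2.97 to 12.1). The mutant UMIs came from 60 of 1815 cells with up to 14 in a single cell, and the wild-type UMIs came from 9 of 711 cells. No Mmp3 UMI was found in mural, endothelial, immune or haemoglobin-rich cells of either library.

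The inhibitors stayed within 1.5-fold over the whole class, whereas Timp1 and Timp2 had opposite ratios in subdivisions of it, given below. Timp1 was at 368 CPM (352 to 384) against 341 CPM (319 to 364), and its direction held in 8 of the 10 alternative settings that change it. Timp2 was at 887 CPM (862 to 911) against 801 CPM, a ratio of 1.11 (1.05 to 1.17), and its direction held in 9 of 10. Timp3 was at 101 CPM (92.6 to 109) against 138 CPM, 1.37-fold lower (1.198 to 1.56), and its ratios split by the adventitial marker Pi16 are given below. Of the remaining proteinases, Mmp23 was at 192 against 161 CPM, Adamts2 at 117 against 133 CPM and Adamts5 at 98.6 against 105 CPM, and the directions of Adamts2 and Adamts5 each changed in at least 1 alternative setting. In cells without a Pi16 UMI the ratio was 1.66 for Mmp23 and 1.58 for Adamts5, against 1.07 and 0.935 in cells with one.

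All 10 members were counted here, of which 4 were at least 2-fold higher in the mutant library, beside 5.62% of 11066 genes, and 0 were at least 2-fold lower, beside 5.68%. Mmp3 passed the minimum of 20 UMIs only through the mutant library, so it had to come out higher, and without it 3 of 9 were. The median log2 ratio was -0.03 for all genes and, without Mmp3, 0.15 for the members. A list of 15 immediate early and heat shock genes, taken as a dissociation list, was higher in the same class. It was summed at 6652 CPM in mutant and 4320 CPM in wild-type fibroblasts. Of the 14 genes counted, 4 were at least 2-fold higher, beside 5.62% of all genes. These were Fos at 2.14, Junb at 2.04, Zfp36 at 2.11 and Socs3 at 2.50. The paper reports Fos and Junb, as components of the AP-1 complex, among the genes induced in mutant cells against wild-type tenocytes. Whether dissociation raised them was not tested. In Scx-high cells the same list was at 3157 CPM in mutant and 3596 CPM in wild-type cells. There 0 of the 13 genes counted were at least 2-fold higher, beside 12.2% of all genes. Schwann, mural, endothelial and immune marker lists were no higher in mutant than in wild-type fibroblasts, whereas haemoglobin was at 832 against 332 CPM and the muscle list at 17.5 against 7.07 CPM, with 6 and 3 of its 6 markers detected. The part of the dissociation, haemoglobin and muscle transcripts in the fibroblast ratios was not tested.

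**Figure D2:**
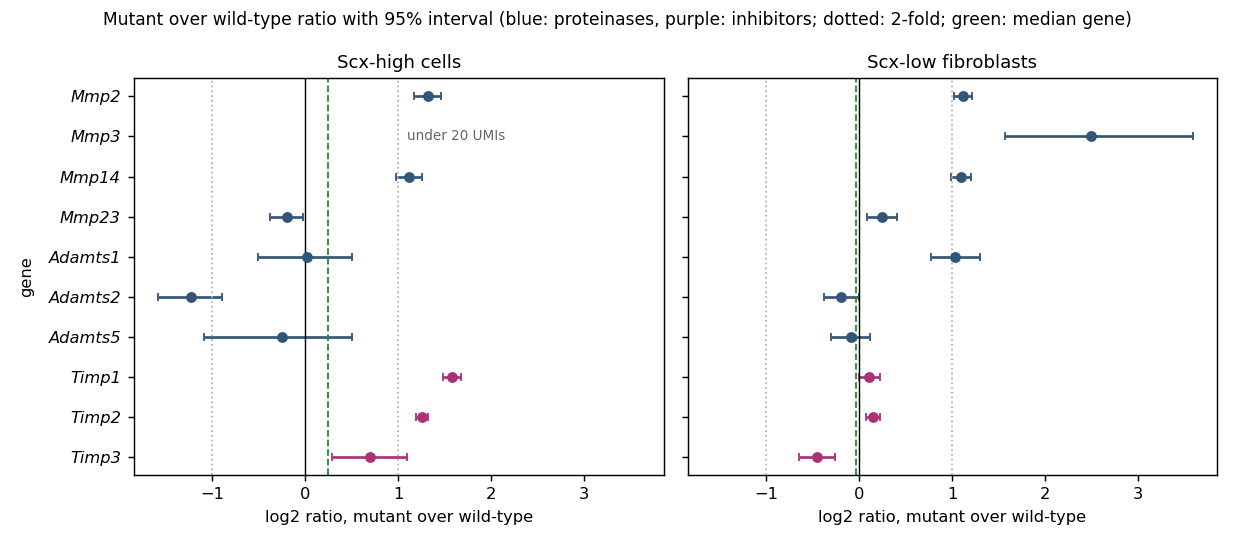
Log2 ratio of mutant over wild-type with its 95% interval (counting error only) for each gene in Scx-high cells (left) and Scx-low fibroblasts (right), with proteinases in blue, inhibitors in purple, dotted lines at 2-fold and a green line at the median gene. Mmp2 and Mmp14 lie right of the 2-fold line in both panels, whereas Timp1 and Timp2 lie there in Scx-high cells only, and Mmp3 is not drawn on the left because it had under 20 UMIs.

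The largest cell class of each library differed, and the fourth comparison set the mutant Scx-low fibroblasts against the wild-type Scx-high cells. Mmp2 was 3.49-fold higher (3.26 to 3.73), Mmp14 2.42-fold (2.28 to 2.58), Adamts5 4.92-fold (3.96 to 6.18), Adamts1 2.77-fold (2.35 to 3.27) and Timp3 2.32-fold (1.98 to 2.73). Mmp3 was 33.6-fold above the limit of 3 UMIs in the wild-type class, and this value ranged from 25.3 to 34.7 over the alternative settings. This comparison shares its cells with the previous ones, so its values are not separate evidence. Mmp23, Adamts2, Timp1 and Timp2 were lower by less than 2-fold, with Mmp23 1.78-fold lower (1.65 to 1.92) and Adamts2 1.56-fold lower (1.41 to 1.73).

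Thus 6 of 10 members were at least 2-fold higher and 0 at least 2-fold lower, beside 22.0% and 6.65% of 11278 genes. Mmp3 again passed only through the mutant class, and without it 5 of 9 were higher. The median log2 ratio was 0.41 for all genes and, without Mmp3, 1.21 for the members. Divided by the median gene, 4 members were higher and 2 lower, with 13.3% and 11.3% of all genes. For Adamts5 and Timp3 the difference was already present inside the wild-type library, since wild-type fibroblasts as a whole class were as high as or higher than mutant fibroblasts. In fibroblasts without a Pi16 UMI, however, Adamts5 was 1.58-fold higher in the mutant library (1.23 to 2.04). For Mmp2 the difference was present in part, since wild-type fibroblasts were 1.60-fold (1.47 to 1.75) above wild-type Scx-high cells, and 588 CPM was reached in those that kept Tnmd. For Mmp14 the wild-type classes differed by 1.13-fold (1.04 to 1.23).

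Summing the groups shows how the inhibitors and the proteinases stood to each other as transcripts. In wild-type Scx-high cells there were 1.47 Timp UMIs (1.42 to 1.52) for each UMI of the 7 proteinases, and in wild-type Scx-low fibroblasts 1.104 (1.05 to 1.16). In mutant Scx-high cells the value was 2.52 (2.38 to 2.67) and in mutant Scx-low fibroblasts 0.660 (0.641 to 0.679). The mutant classes thus lay on either side of both wild-type classes, and the intervals did not overlap. The sum of the proteinases was 2053 CPM in mutant and 1159 CPM in wild-type fibroblasts, while the sum of the inhibitors was 1355 and 1280 CPM. In Scx-high cells the proteinases were at 1645 and 1107 CPM and the inhibitors at 4151 and 1627 CPM.

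These sums rest mainly on a few genes. Timp2 alone supplied 45.1% of the member UMIs in mutant Scx-high cells and 40.0% in wild-type ones, and Mmp2 and Mmp14 supplied 15.1% and 13.6% in wild-type fibroblasts and 23.6% and 20.9% in mutant fibroblasts. Among the Scx-high cells under the fibroblast threshold, the inhibitor-to-proteinase value was 1.89 (1.53 to 2.33) in the mutant and 1.44 (1.39 to 1.499) in the wild-type library. Over the threshold it was 2.58 (2.43 to 2.74) and 1.60 (1.47 to 1.73). In the fibroblasts it was below 1 in every mutant subdivision by Tnmd, Pi16 or cycling genes, between 0.595 and 0.914, and above 1 in every wild-type one, between 1.02 and 1.70, although the intervals of mutant cycling cells (0.817 to 1.02) and of wild-type cells that kept Tnmd (0.991 to 1.25) or had Pi16 (0.952 to 1.09) reached 1. The value is a ratio of transcript counts and gives neither protein amounts nor activity. Its proteinase sum includes the Adamts genes, whereas Timp1 and Timp2 supply most of the inhibitor sum and TIMP3 is the member known for blocking ADAMTS enzymes. Mmp13, described below, is not in the sum.

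**Figure D3:**
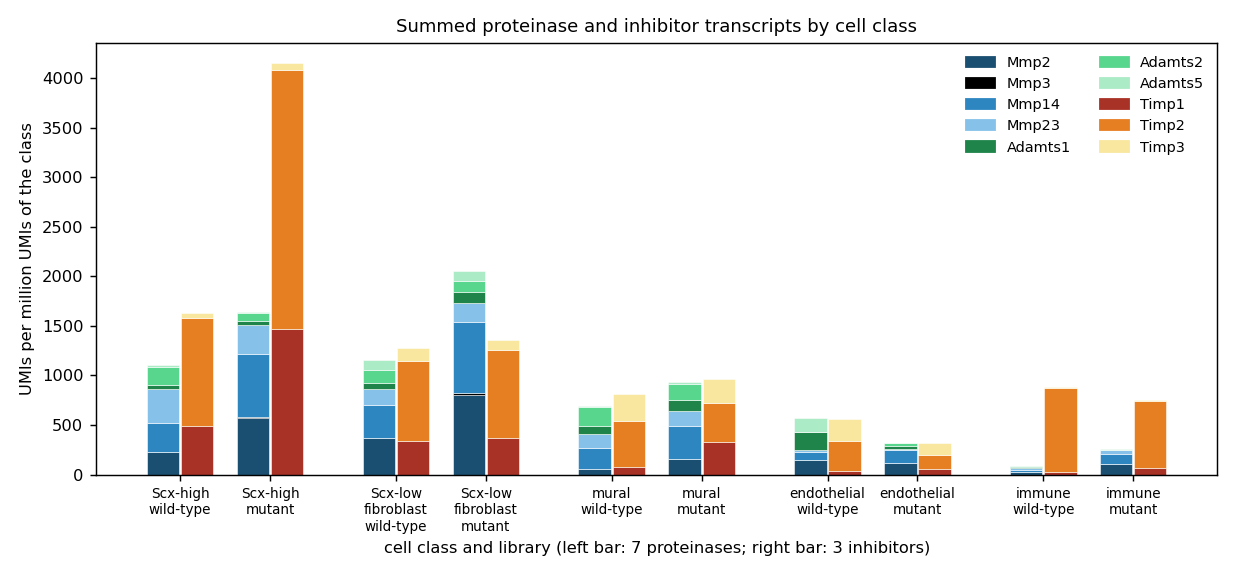
Summed CPM of the 7 proteinases (left bar, blues and greens) and the 3 inhibitors (right bar, reds to yellow) in the 5 classes of each library, with no error drawn. Inhibitors exceed proteinases in mutant Scx-high cells (4151 against 1645), and proteinases exceed inhibitors in mutant Scx-low fibroblasts (2053 against 1355).

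Shares of cells with a UMI followed the levels for most members. Mmp2 was detected in 49.5% of wild-type and 75.7% of mutant Scx-high cells and in 60.6% and 76.7% of Scx-low fibroblasts. Haemoglobin-rich cells, which should lack these transcripts, had it in 5.68% and 0% of cells, the latter allowing up to 3.80%. Their median depths were 5682 and 4451 UMIs against 2878 to 4283 in the fibroblast and Scx-high classes. Haemoglobin took 955760 and 969082 CPM of these UMIs, however, which left few for any other gene. Their shares are therefore no background at the depth of the other classes. After every cell was thinned to 1500 UMIs, with 17 to 165 shallower cells of each of these classes left out, Mmp2 was in 27.0% and 47.8% of Scx-high cells and in 37.9% and 62.7% of fibroblasts. For Mmp14 the thinned shares were 33.6% and 60.7% of Scx-high cells and 37.0% and 59.0% of fibroblasts. Haemoglobin-rich cells had 1.30% and 0%, but most of their thinned UMIs were haemoglobin, so these shares set no background. Adamts1 was in 15.3% of wild-type and 24.4% of mutant fibroblasts, or 7.61% and 14.4% after thinning. For Timp2 in fibroblasts the share went against the level, at 86.4% and 75.5%, or 64.9% and 61.5% after thinning, and no order was read from it.

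Timp1 behaved differently. In Scx-high cells its level was 2.99-fold higher in the mutant library while its share was 74.3% in wild-type and 73.4% in mutant cells, or 46.8% and 52.7% after thinning. Timp1 was more concentrated in the mutant class, where the 10% of cells with most Timp1 UMIs carried 61.8% of them against 35.7% in the wild-type class, with up to 90 and 23 UMIs in a single cell. The remaining cells also differed, with a mean of 2.88 UMIs per mutant and 1.45 per wild-type cell. For Timp2 that figure was 34.5% and 25.8%, and its thinned share was 87.6% and 73.8%. Timp1 was also concentrated in wild-type fibroblasts, where the top 10% held 63.0% of the UMIs.

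Adamts2 and Adamts5 were detected in fewer cells. Adamts2 was in 48.1% of wild-type and 27.5% of mutant Scx-high cells, or 23.3% and 11.4% after thinning. Adamts5 was in 26.6% and 22.5% of fibroblasts but in 7.89% and 6.42% of Scx-high cells, and in 0% of haemoglobin-rich cells of both libraries. Mmp2, Mmp14 and Timp2, the partners of MMP2 activation, were found together in 25.9% of thinned mutant Scx-high cells (19.97% to 32.5%) and 25.9% of thinned mutant fibroblasts (23.8% to 28.1%), against 7.67% (6.15% to 9.43%) and 9.70% (7.57% to 12.2%) in the wild-type library. The product of the single shares was 25.4% and 22.8% in the mutant and 6.70% and 9.11% in the wild-type classes, below the interval of the observed share in mutant fibroblasts and inside it in the other 3 classes. Cells of a library are not replicates and the classes are mixed, so no link between these genes was read from this.

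Scx-low fibroblasts are a mixed class, and the members varied within it. Cells that kept Tnmd, with at least 10 Tnmd UMIs per 10000, numbered 410 in the mutant and 130 in the wild-type library. Tnmd was also counted in immune cells, at 459 CPM in wild-type and 142 CPM in mutant ones. The part of such counts in the Tnmd split was not tested. Pi16, a marker of adventitial fibroblasts, was detected in 349 of 1815 mutant and 308 of 711 wild-type cells, so its share differed between the libraries. Adamts5 was 3.13-fold higher in Pi16-positive than in Pi16-negative wild-type cells (2.39 to 4.12), at 166 and 53.0 CPM, and 1.85-fold higher in the mutant library (1.54 to 2.21), at 155 and 83.7 CPM. Timp3 was 2.20-fold higher in Pi16-positive wild-type cells (1.77 to 2.75) and 2.08-fold in mutant ones (1.74 to 2.48). Its mutant over wild-type ratio was 0.874 (0.721 to 1.06) in Pi16-positive and 0.924 (0.754 to 1.14) in Pi16-negative cells. For Adamts5 these ratios were 0.935 (0.762 to 1.15) and 1.58 (1.23 to 2.04), and for Mmp23 1.07 (0.902 to 1.26) and 1.66 (1.40 to 1.98). The part of the Pi16 share in the whole-class ratios was not tested.

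Timp2 was tied to Tnmd in the mutant library. It was at 1325 CPM in mutant fibroblasts that kept Tnmd and 750 CPM in those low for it, a ratio of 1.77 (1.67 to 1.87), whereas the wild-type values of 780 and 804 CPM gave 0.97 (0.86 to 1.09). The mutant over wild-type ratio of Timp2 was 1.70 (1.51 to 1.92) in cells that kept Tnmd and 0.933 (0.880 to 0.988) in cells low for it. Mmp2 showed another pattern: in the wild-type library it was 1.79-fold higher in cells that kept Tnmd (1.54 to 2.07), at 588 and 329 CPM, and in the mutant library both groups were high, at 710 and 832 CPM. Its mutant over wild-type ratio was therefore 1.21 (1.05 to 1.40) in cells that kept Tnmd and 2.53 (2.34 to 2.74) in cells low for it.

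Mmp14 and Adamts1 were higher in the mutant library in every subdivision by Tnmd and Pi16. For Mmp14 the ratio was 2.25 in cells that kept Tnmd, 2.07 in cells low for it, 2.07 in Pi16-positive and 2.09 in Pi16-negative cells. For Adamts1 it was 2.43, 1.93, 1.83 and 2.15. Timp1 split by Pi16: it was 1.74-fold higher in mutant than wild-type Pi16-positive cells (1.49 to 2.02), at 387 and 223 CPM, and 1.22-fold lower in Pi16-negative cells, at 362 and 441 CPM. Mmp3 reached 35.4 CPM in mutant Pi16-positive cells from 42 UMIs, against 17.2 CPM in Pi16-negative ones.

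Cycling fibroblasts, with at least 2 UMIs over Mki67, Top2a, Birc5, Cenpf, Ube2c and Cdk1, numbered 102 in the mutant and 50 in the wild-type library. They had less Mmp2 than other fibroblasts in both libraries, 2.06-fold lower in wild-type and 1.56-fold lower in mutant cells. Mmp14 was 1.45-fold and 1.57-fold lower.

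**Figure D4:**
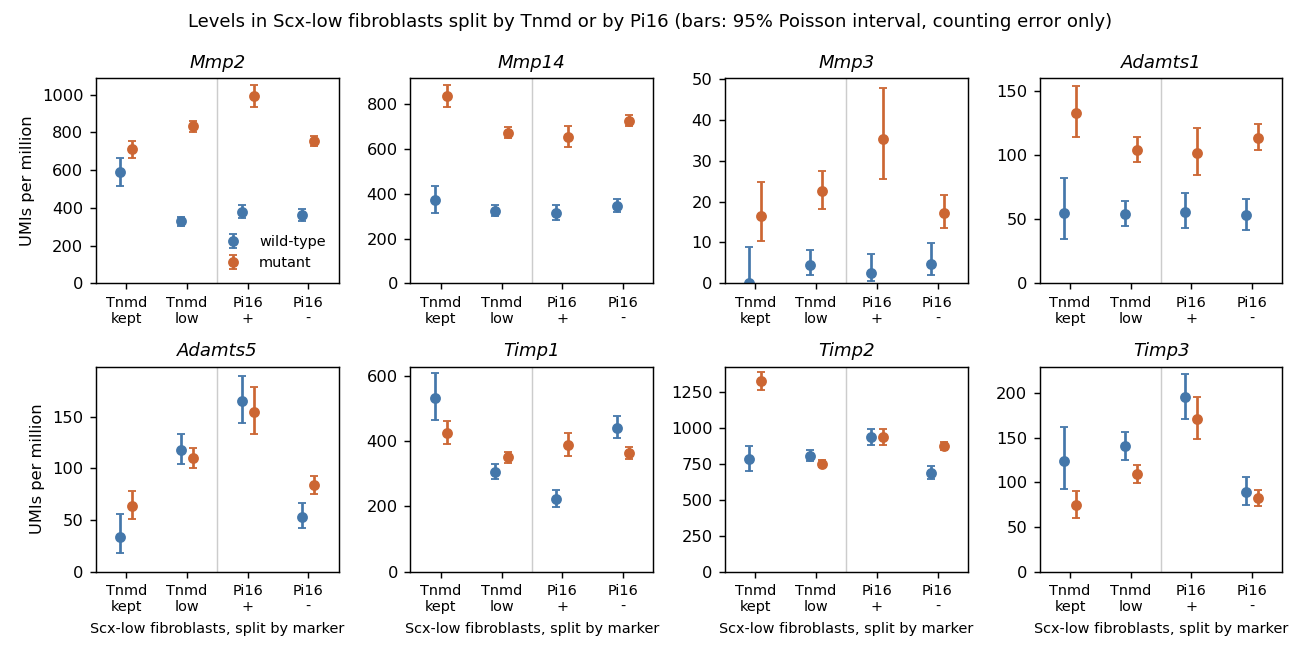
Levels of 8 of the genes, in CPM with 95% Poisson intervals that cover counting error only, in Scx-low fibroblasts that kept or were low for Tnmd (left pair of each panel) or that had or lacked a Pi16 UMI (right pair), for the wild-type (blue) and mutant (orange) libraries. Mutant points lie above wild-type points throughout for Mmp2, Mmp14, Mmp3 and Adamts1, while Adamts5 and Timp3 follow Pi16 in both libraries.

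Outside the tendon classes, Timp3 was highest in the 67 Schwann or neural cells of the mutant library, at 464 CPM (376 to 566) from 97 UMIs, and the wild-type library held only 4 such cells. Mural cells had 266 CPM in the wild-type and 242 CPM in the mutant library, and endothelial cells had 213 and 118 CPM from 18 and 13 UMIs, and the intervals of neighbours in this order overlapped. Immune cells had 7.71 and 15.5 CPM. Adamts5 was at 142 CPM in wild-type endothelial cells from 12 UMIs in 4 cells, and at 0 UMIs in mutant ones. Adamts2 was as high in wild-type mural cells, at 190 CPM, as in Scx-high cells, at 182 CPM. Timp1 in mural cells was 4.34-fold higher in the mutant library (3.12 to 6.09), at 325 against 74.8 CPM, and 53 of its 102 UMIs were in a single cell.

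Immune cells carried Timp2 and little else of the 10. Timp2 was at 852 CPM in wild-type and 676 CPM in mutant immune cells, in 76.2% and 60.1% of them. Mmp2 was at 23.1 CPM in wild-type and 106 CPM in mutant immune cells from 12 and 41 UMIs, and Mmp14 at 25.1 and 101 CPM from 13 and 39 UMIs. The fibroblast markers were also higher in mutant immune cells, at a summed 1211 against 195 CPM, and Tnmd was at 142 against 459 CPM. In mutant immune cells 8.29% reached the fibroblast threshold, against 2.59% in the wild-type library, and the part of such cells in the Mmp2 and Mmp14 values was not tested.

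A wider list of the family, made with earlier results of these data known, held 52 further MMP, ADAMTS, ADAMTS-like, ADAM and inhibitor genes, 51 of them in the table, of which 26 had at least 50 UMIs over the Scx-high and Scx-low classes. In Scx-high cells 6 of the 23 genes counted were at least 2-fold higher in the mutant library and 3 lower, beside 12.2% and 7.76% of all genes. In Scx-low fibroblasts 6 of 28 were higher and 4 lower, beside 5.62% and 5.68%. The higher genes were Mmp13, Adamtsl2, Adamts4, Adamts17, Adamts8 and Mmp19. Like Mmp3, they reached the minimum UMI count only through the mutant library, with 0 to 12 UMIs each in wild-type fibroblasts. No enrichment was therefore read from that count. The other counts of this list also include genes that passed only through their higher group. Between mutant fibroblasts and wild-type Scx-high cells 14 of 28 were higher and 3 lower, beside 22.0% and 6.65%. Between the wild-type classes 13 of 26 were higher in fibroblasts and 5 lower, beside 20.8% and 6.19%.

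Mmp13, a collagenase of cartilage and remodelling matrix, had 0 UMIs in both wild-type classes. It had 213 UMIs in mutant fibroblasts, or 37.6 CPM (32.8 to 43.1), at least 33.7-fold higher than the limit in wild-type fibroblasts. They came from 42 cells, or 2.31%, with up to 23 UMIs in a single cell. In mutant Scx-high cells Mmp13 had 28 UMIs, of which 27 were in a single cell. Like Mmp3, it was thus confined to a small share of the mutant cells at this depth.

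Among other family genes, Adamts8 was 6.34-fold higher in mutant fibroblasts (3.23 to 14.2), at 21.2 against 3.35 CPM, and the aggrecanase Adamts4 4.75-fold higher (2.06 to 13.5), at 10.6 against 2.23 CPM. Mmp19 was 2.85-fold higher (1.54 to 5.78). Adamts19 was 5.26-fold lower (3.35 to 8.47), at 4.95 against 26.0 CPM, and Adamtsl5, which encodes an ADAMTS-like protein with no proteinase domain, was 3.82-fold lower (2.80 to 5.25), at 11.5 against 43.9 CPM. In Scx-high cells Adam12 was 2.52-fold higher (1.90 to 3.31) and Adam33 3.40-fold higher (1.81 to 6.25) in the mutant library. Adamts9 was 4.03-fold lower there (1.80 to 11.2), at 5.96 against 24.0 CPM, and Adamts15 was at 1.99 against 13.4 CPM from 2 and 64 UMIs.

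Among genes that activate or clear these enzymes, Plat, which encodes tissue plasminogen activator, was at 114 against 11.3 CPM in mutant and wild-type Scx-high cells, 10.1-fold higher (7.27 to 14.3). Pcsk5, a proprotein convertase, was 2.46-fold higher (1.92 to 3.15) in Scx-high cells and 2.74-fold higher (2.13 to 3.56) in fibroblasts. In fibroblasts 1 of the 7 genes counted was at least 2-fold higher and 2 were lower, beside 5.62% and 5.68% of all genes. The lower ones were Pcsk6, 2.14-fold lower (1.67 to 2.73), and Plaur, the urokinase receptor, 3.36-fold lower (2.62 to 4.32), at 18.9 against 63.6 CPM.

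The genes whose levels followed each member most closely were sought among 7030 genes over the 10 profiles of 5 classes in 2 libraries, which share depth and free RNA within a library. Pearson's r is given as a description. For Mmp2 the 3 closest genes were Cdkn1c (r = 0.956), Fam195b (r = 0.946) and Cthrc1 (r = 0.941). For Mmp3 they were Gfra1 (r = 0.977), Cyp2f2 (r = 0.968) and C3 (r = 0.955). Mmp3 was at 21.0 CPM in mutant fibroblasts, 3.72 in wild-type fibroblasts, 1.99 in mutant Scx-high cells and 0 in the other profiles. Its r therefore rests mainly on the mutant fibroblasts. For Mmp14 they were Scfd1 (r = 0.966), Mxra8 (r = 0.954) and Nop58 (r = 0.954). For Mmp23 they were Sec24d (r = 0.988), Scarf2 (r = 0.983) and Dnm3os (r = 0.980). For Timp1 they were Srpx2 (r = 0.961), Sec61a1 (r = 0.953) and Lox (r = 0.952). For Timp2 they were Sulf2 (r = 0.952), Nupr1 (r = 0.925) and Tmem208 (r = 0.917). For Timp3 they were Id3 (r = 0.972), Cfl2 (r = 0.960) and 4930523C07Rik (r = 0.955). For Adamts1 they were Bbx (r = 0.966), Dnpep (r = 0.964) and Emp2 (r = 0.953). For Adamts2 they were Alg2 (r = 0.963), Gpc6 (r = 0.961) and Neo1 (r = 0.961). For Adamts5 they were Kcnq1ot1 (r = 0.945), Fam20c (r = 0.935) and Fdx1 (r = 0.914).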

How the data were processed

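Per the submitters' processing notes, the authors aligned 10x Genomics 3′ reads to mm10 with Cell Ranger 1.2.0, while the paper names another release. Barcodes were filtered on their UMI totals by the authors. The deposited counts are whole UMIs per gene and cell, without normalization. All barcodes were used, 2 of which occur in both libraries. Library totals were 9451606 and 8250248 UMIs. The members and lists were chosen with earlier results of these data known, and the scoring of the classes was set after marker counts had been seen. Cells with over 50% haemoglobin UMIs were set apart first, then cells with at least 5 UMIs over at least 3 mural, endothelial, immune, Schwann, muscle or epithelial markers, then Scx-high cells and Scx-low fibroblasts. No doublet caller was run, and cells with markers of a further class were left out in an alternative. UMIs were summed per class. CPM have exact Poisson, ratios exact conditional and shares exact binomial 95% intervals. Genes with at least 20 UMIs over both groups were counted at 2-fold, and 3 UMIs are the limit that a count of 0 allows. All 10 members are named, and of the lists the genes with at least 50 UMIs, with a selection of these printed. A result of the activator list is not reported here. The interval was tested on simulated counts. There were 12 planned and 2 added alternatives. Python 3.11.15, NumPy 2.4.6, SciPy 1.17.1, pandas 2.3.3 and matplotlib 3.10.9 were used.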

Additional observations from a re-analysis of the deposited data

Results flagged for a closer look

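For 2 members the mutant over wild-type ratio pointed in opposite directions in the Scx-high cells and the Scx-low fibroblasts, with 1 library per genotype, and the difference was not tested. Timp3 was 1.62-fold higher in mutant Scx-high cells and 1.37-fold lower in mutant fibroblasts, a difference of 1.15 on the log2 scale. Split by fibroblast markers, the Timp3 ratio in Scx-high cells was 1.099 (0.754 to 1.604) with them and 1.84 (0.781 to 3.72) without. Both of these intervals include 1, so neither part of the class shows the higher level by itself. Within the fibroblasts the Timp3 ratio was 0.874 (0.721 to 1.06) in Pi16-positive and 0.924 (0.754 to 1.14) in Pi16-negative cells, with both intervals reaching over 1. It was 0.601 (0.426 to 0.858) in cells that kept Tnmd and 0.775 (0.671 to 0.896) in cells low for it. Pi16-positive cells were 308 of 711 wild-type and 349 of 1815 mutant fibroblasts. Mmp23 was at 0.873 of its wild-type level in Scx-high cells and at 1.19 in fibroblasts, a difference of -0.45 on the log2 scale. The Mmp23 value in Scx-high cells joins a 1.59-fold higher level (1.31 to 1.92) in cells with fibroblast markers, the direction seen in the fibroblasts, and a 3.79-fold lower level, from 11 mutant UMIs, in cells without them.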

How the results depend on the processing

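The counts of members at least 2-fold higher or lower in the 4 comparisons were recomputed under each alternative. Leaving aside 4 values whose setting does not touch the cells compared, 89 stayed within 1.5-fold of the value given, 7 moved and 0 reversed. In Scx-high cells the count of higher members was 1 among cells without fibroblast markers, and that of lower members was 0 when cells with markers of a further class and the 5% with most UMIs were left out. Between mutant fibroblasts and wild-type Scx-high cells the count of lower members, 0 as reported, was 1 without those cells, 1 when every cell weighed the same, 1 without the 20 most abundant genes, 2 when centred on the median gene and 2 at a fold of 1.5. The cause was not tested. Of the single ratios that a setting could change, 284 moved by less than their interval, 97 by more and 0 reversed among those past 2-fold. Thinning to 1500 UMIs moved 65 of 100 shares beyond their interval. No paired analysis was possible because each genotype has 1 library, and for the same reason no library could be left out. Mmp3, Adamts5 and the endothelial cells are limited by depth, with as few as 0 to 17 UMIs in a class.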
